A study of Mus musculus with 15 samples.

Results

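The Toll-like receptor genes of cultured bone marrow mesenchymal stromal cells (MSCs) were followed in mice with and without TauT, the taurine transporter encoded by *Slc6a6*. The members were the rows of the count table with the symbols *Tlr1*, *Tlr2*, *Tlr3*, *Tlr4*, *Tlr5*, *Tlr6*, *Tlr7*, *Tlr8*, *Tlr9* and *Tlr13*, which made 10 of the 56832 genes counted. All 10 passed the filter on low counts and were among the 17204 genes tested.

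Toll-like receptors are membrane proteins of the innate immune system that bind molecules typical of microbes through leucine-rich repeats and signal through a cytoplasmic TIR domain. TLR1, TLR2, TLR4, TLR5 and TLR6 act mainly at the cell surface on lipopeptides, lipopolysaccharide and flagellin, while TLR3, TLR7, TLR8, TLR9 and TLR13 sit in endosomes and bind RNA or DNA. They signal through the adaptors MyD88 and TRIF to NF-κB and interferon regulatory factors, and in bone marrow they are best known from macrophages, dendritic cells and other blood cells, although stromal cells express some of them.

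The cells came from femurs and tibias of young adult C57BL/6J mice, either TauT+/+ (labelled WT) or with a global, germline loss of TauT (TauT-/-, labelled KO). Marrow cells were first grown as adherent cells in serum under low oxygen until confluent, and MSCs were then enriched either with magnetic beads, against CD45, Ter119 and CD31, or by flow sorting. Which of these was used for each library is not given in the sources used here. There were 4 TauT+/+ and 4 TauT-/- libraries labelled male, and 3 TauT+/+ and 4 TauT-/- libraries labelled female, and the labels do not say whether they came from separate animals. The p-values therefore measure the spread between these libraries, which may be partly technical.

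Total counts ran from 69764291 to 101575071 in male-labelled libraries and from 12761107 to 20781070 in female-labelled ones, so depth and sex label cannot be told apart. The libraries labelled male 1 and female 1 were close to identical in each genotype, with a median absolute log2 ratio over genes of 0.102 for the TauT-/- pair and 0.114 for the TauT+/+ pair against 0.261 for the next closest pair. In 3 libraries the levels of *Xist* and *Ddx3y* opposed the sex given by the label. *Xist* stood at 841 CPM and *Ddx3y* at 0.0146 CPM in TauT+/+ male 1, at 728 and 0.184 CPM in TauT-/- male 1, and at 14.0 and 81.9 CPM in TauT+/+ female 3. The male-labelled library of each near-identical pair was thus among the 3. Whether such a pair is 1 sample sequenced again was not tested, so n = 7 and n = 8 may count 1 sample a genotype more than once, and results are also given with 13 libraries. *Slc6a6* itself ranged from 592 to 2591 CPM (a gene's count relative to the size of its library, after edgeR's TMM normalization) in TauT+/+ libraries and from 401 to 1521 CPM in TauT-/- libraries, so the ranges overlapped and the libraries are named throughout by their labels. All 8 TauT-/- libraries were below the TauT+/+ median of *Slc6a6*, at a log2 fold change of -0.97 with an unadjusted p of 0.0162 and adjusted p-values of 0.125 in edgeR, 0.0631 in DESeq2 and 0.0246 in voom. Counts of the whole gene do not test the allele. Libraries are written below as genotype, sex label and number.

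None of the 10 receptor genes passed the main test, edgeR's quasi-likelihood test for genotype in a model that also held the sex label, at a Benjamini-Hochberg adjusted p under 0.05. Across all genes 0.546% were called higher and 0.75% lower in TauT-/- MSCs by that test. The endosomal receptor genes *Tlr7*, *Tlr9* and *Tlr13* had the highest values in TauT-/- libraries relative to TauT+/+, from 1.98-fold to 3.88-fold, and an unadjusted p under 0.05. The share of all genes higher at that unadjusted threshold was 10.6%. DESeq2 called the same 3 genes higher, against 5.82% of the genes it gave an adjusted p, and limma's voom called them too, against 3.55% of all genes. The remaining 7 receptor genes had adjusted p-values from 0.253 to 0.921 in edgeR.

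For *Tlr9* and *Tlr13* the promoter sequence was at hand and is shown here with that of *Tlr3*, the endosomal receptor gene whose level was lower in most TauT-/- libraries. The RefSeq promoter table for GRCm38.p6 held 8 of the 10 members, and entries for *Tlr4* and *Tlr7* were not used here. Capitals mark GAGGAAG or its reverse complement, the core to which PU.1, the myeloid and B cell transcription factor encoded by *Spi1*, can bind. Each sequence runs 5′ to 3′ on the gene's own strand from 250 bases before the transcription start to 30 bases after it.

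Tlr9, chr9:106222348-106222627, plus strand: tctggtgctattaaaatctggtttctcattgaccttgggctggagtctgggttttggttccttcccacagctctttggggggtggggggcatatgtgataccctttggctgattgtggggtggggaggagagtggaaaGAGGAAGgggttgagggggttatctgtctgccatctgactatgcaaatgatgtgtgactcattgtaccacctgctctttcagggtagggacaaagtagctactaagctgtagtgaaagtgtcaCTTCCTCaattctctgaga

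Tlr13, chrX:106143025-106143304, plus strand: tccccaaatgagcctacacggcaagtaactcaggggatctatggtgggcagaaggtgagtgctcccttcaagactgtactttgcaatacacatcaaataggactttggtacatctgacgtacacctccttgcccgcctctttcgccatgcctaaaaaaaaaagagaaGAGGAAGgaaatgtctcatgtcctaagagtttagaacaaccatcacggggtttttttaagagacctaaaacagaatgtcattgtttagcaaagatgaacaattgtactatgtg

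Tlr3, chr8:45410351-45410630, minus strand: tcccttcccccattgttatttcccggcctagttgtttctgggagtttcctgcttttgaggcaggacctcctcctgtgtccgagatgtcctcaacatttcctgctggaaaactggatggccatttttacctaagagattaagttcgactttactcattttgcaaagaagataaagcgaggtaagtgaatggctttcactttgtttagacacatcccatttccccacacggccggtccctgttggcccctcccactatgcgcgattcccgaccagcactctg

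Counting from the start, the *Tlr9* matches began at position -112 and, on the opposite strand, at position 12, and the *Tlr13* match began at position -83. GAGGAAG was searched on both strands in windows reaching 50 bases past the start, and 13.6% of 32851 promoters held it. *Tlr1* held it in 1 of its windows, at position -23, and the windows of *Tlr2*, *Tlr3*, *Tlr5*, *Tlr6* and *Tlr8* did not hold these letters. Outside the members, the window of *Tlr11*, a gene with 0 counts in every library, held it at positions -133 and 26. That of *Tlr12* did not hold it. GAAANNGAA, an interferon regulatory factor half-site pair found in 8.56% of promoters, occurred in the windows of *Tlr6* and *Tlr8*, and in that of *Tlr11*. The NF-κB consensus, found in 8.46% of promoters, occurred in those of *Tlr2* and *Tlr3*. No window of a member held more than 1 of these 3 motifs, and a match describes letters and not a bound site.

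*Tlr7* (chromosome X, 166086758 to 166113605 on the minus strand of GRCm39) encodes an endosomal receptor for single-stranded RNA. TauT+/+ male 1 to 4 had 47.9, 5.805, 37.9 and 17.8 CPM, and TauT+/+ female 1 to 3 had 45.5, 30.2 and 34.3 CPM. TauT-/- male 1 to 4 had 43.0, 50.5, 61.4 and 102 CPM, and TauT-/- female 1 to 4 had 57.0, 96.2, 112 and 82.2 CPM. The TauT+/+ median of 34.3 CPM was exceeded in all 8 TauT-/- libraries and the TauT+/+ maximum in 7 of them, the exception being TauT-/- male 1. The lowest value of all, in TauT+/+ male 2, stood far under the rest of its genotype. TauT+/+ libraries averaged 31.3 ± 15.1 CPM (SD, n = 7) and TauT-/- libraries averaged 75.5 ± 25.9 CPM (SD, n = 8). On the log2 scale the difference was 1.24 with a standard error of 0.35. edgeR gave an unadjusted p of 0.00323 and an adjusted p of 0.0749, DESeq2 an adjusted p of 0.0102 and voom 0.0282. With 1 library left out at a time the log2 fold change stayed between 1.06, without TauT+/+ male 2, and 1.44, without TauT+/+ male 1, and the gene passed edgeR's threshold only without TauT+/+ male 3, with an adjusted p of 0.0456.

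*Tlr9* (chromosome 9, 106099797 to 106104082, plus strand) encodes the endosomal receptor for unmethylated CpG DNA and was the lowest of the members. TauT+/+ male 1 to 4 had 1.37, 0.111, 1.31 and 0.901 CPM, and TauT+/+ female 1 to 3 had 0.919, 1.61 and 2.40 CPM. TauT-/- male 1 to 4 had 1.12, 2.50, 3.36 and 6.06 CPM, and TauT-/- female 1 to 4 had 1.57, 6.09, 5.90 and 15.1 CPM. In TauT-/- cells 6 of 8 libraries exceeded the highest TauT+/+ library, and the exceptions were male 1 and female 1, the near-identical pair. TauT-/- female 4 alone was more than 2-fold above any other library. These values rest on 10 to 533 counts a library, the 10 counts being those of TauT+/+ male 2. The average was 1.23 ± 0.705 CPM (SD, n = 7) in TauT+/+ against 5.21 ± 4.47 CPM (SD, n = 8) in TauT-/- libraries. With a log2 fold change of 1.96 and a standard error of 0.55, this was the largest difference among the 10 receptor genes. The unadjusted p in edgeR was 0.00314 and the adjusted p 0.0747, against adjusted p-values of 0.00537 in DESeq2 and 0.0483 in voom. The log2 fold change was 1.67 without TauT-/- female 4 and 2.16 without TauT-/- male 1, and *Tlr9* stayed above edgeR's threshold in every fit that left out 1 library.

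*Tlr13* (chromosome X, 105186810 to 105204533, plus strand) encodes a receptor for bacterial ribosomal RNA that mice have and humans lack. TauT+/+ male 1 to 4 had 74.6, 12.98, 59.1 and 26.1 CPM, and TauT+/+ female 1 to 3 had 66.1, 75.6 and 55.3 CPM. TauT-/- male 1 to 4 had 61.8, 69.5, 80.5 and 129 CPM, and TauT-/- female 1 to 4 had 75.6, 134, 150 and 162 CPM. All 8 TauT-/- libraries exceeded the TauT+/+ median of 59.1 CPM, and 6 exceeded the highest TauT+/+ library. TauT+/+ male 2 and male 4 were again the lowest libraries. The average was 52.8 ± 24.2 CPM (SD, n = 7) in TauT+/+ against 108 ± 39.8 CPM (SD, n = 8) in TauT-/- libraries, which is 0.98 on the log2 scale with a standard error of 0.31. The adjusted p was 0.0937 in edgeR (unadjusted 0.00719), 0.0264 in DESeq2 and 0.047 in voom, and the log2 fold change ran from 0.83 to 1.18 with 1 library left out.

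*Tlr8* and *Tlr3* complete the endosomal receptors. *Tlr8*, whose protein binds degradation products of single-stranded RNA, lies 39.4 kb from *Tlr7* on chromosome X. Its level was 12.1 to 37.2 CPM (median 28.4) in TauT+/+ and 18.1 to 77.8 CPM (median 38.0) in TauT-/- libraries. The highest value belonged to TauT-/- female 2, 4 of 8 TauT-/- libraries exceeded the TauT+/+ maximum, and the log2 fold change of 0.52 (standard error 0.31) did not pass edgeR's test, with an adjusted p of 0.325.

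*Tlr3* (chromosome 8, 45848702 to 45864117, minus strand) encodes the endosomal receptor for double-stranded RNA, the one member that signals through TRIF without MyD88. TauT+/+ male 1 to 4 had 23.6, 26.1, 16.5 and 17.9 CPM, and TauT+/+ female 1 to 3 had 24.1, 27.1 and 18.1 CPM. TauT-/- male 1 to 4 had 12.2, 18.9, 17.1 and 28.9 CPM, and TauT-/- female 1 to 4 had 12.7, 21.8, 18.3 and 11.1 CPM. Of the TauT-/- libraries, 7 of 8 were under the TauT+/+ median of 23.6 CPM, while TauT-/- male 4 had the highest value of all 15. On the log2 scale the difference was -0.31 (standard error 0.20) and edgeR's adjusted p 0.366, so the difference did not exceed the spread between libraries. An exon of *Tlr3* overlaps *Gm45542* on the other strand, and one of *Tlr4* overlaps *Gm69151*. The counting used strand, but whether the libraries mark strand is not given in the sources used here, so reads of these genes and their antisense partners may not be told apart.

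Among the cell-surface receptors, *Tlr2* (chromosome 3) encodes the partner of TLR1 and TLR6 in binding bacterial lipopeptides and had the highest CPM of the 10 genes. It ranged from 28.4 to 106 CPM (median 80.7) in TauT+/+ and from 40.5 to 187 CPM (median 102) in TauT-/- libraries. The TauT-/- values were widely spread, with the near-identical libraries male 1 and female 1 at 40.5 and 40.8 CPM and female 2 and female 4 at 187 and 186 CPM. The log2 fold change was 0.50 (standard error 0.34) with an edgeR adjusted p of 0.383.

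*Tlr1* and *Tlr6* lie 17.8 kb apart on chromosome 5 and arose by duplication. They shared 259 windows of 100 bases, 7.58% of those in *Tlr1* transcripts and 5.34% of those in *Tlr6* transcripts, while no other pair of members shared any, so the counts of these neighbours are uncertain where reads fall in the shared stretches. *Tlr1* ranged from 1.31 to 14.3 CPM (median 6.75) in TauT+/+ and from 5.78 to 19.6 CPM (median 10.2) in TauT-/- libraries, with a log2 fold change of 0.65, a standard error of 0.34 and an edgeR adjusted p of 0.253. *Tlr6* ranged from 6.90 to 15.8 CPM (median 10.6) in TauT+/+ and from 7.59 to 18.4 CPM (median 11.3) in TauT-/- libraries. Its log2 fold change of 0.04 (standard error 0.19) changed sign with some libraries left out. TauT-/- female 4 had the highest value of both genes.

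*Tlr4* (chromosome 4) encodes the receptor for lipopolysaccharide. It ranged from 26.2 to 49.98 CPM (median 40.2) in TauT+/+ and from 31.2 to 69.7 CPM (median 45.1) in TauT-/- libraries, with a log2 fold change of 0.32, a standard error of 0.20 and an edgeR adjusted p of 0.349. *Tlr5* (chromosome 1), the flagellin receptor gene, ranged from 11.0 to 18.2 CPM (median 14.5) in TauT+/+ libraries. In TauT-/- it ranged from 1.77 to 17.9 CPM (median 14.0), and no TauT-/- library exceeded the highest TauT+/+ library. The lowest value, in TauT-/- female 4, stood apart from the other TauT-/- libraries, whose lowest was 8.57 CPM in male 4. The log2 fold change of *Tlr5* was -0.24 with a standard error of 0.33 and an edgeR adjusted p of 0.686, and it was -0.09 without TauT-/- female 4.

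**Figure D1:**
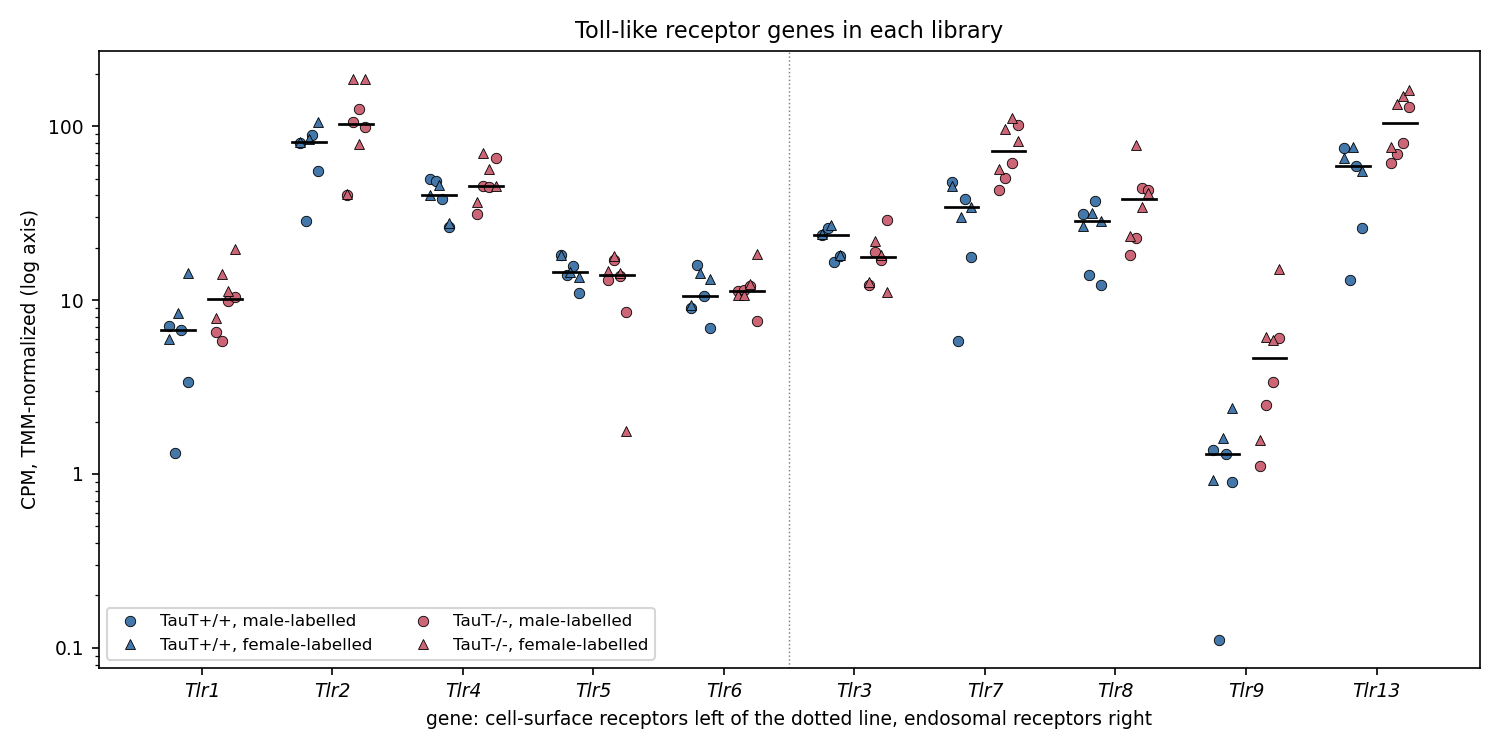
Normalized CPM (log axis) of each Toll-like receptor gene in the 15 libraries, with 1 point a library, circles for male-labelled and triangles for female-labelled libraries, blue for TauT+/+ and red for TauT-/-, and a line at each genotype's median. The *Tlr7* medians were 34.3 and 71.8 CPM and the *Tlr13* medians 59.1 and 104 CPM, while *Tlr5* and *Tlr6* overlapped over most of their range.

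*Tlr11* and *Tlr12*, the remaining Toll-like receptor symbols in the table, were at or near 0. *Tlr11* had 0 counts in all 15 libraries, where 3 counts, the limit a count of 0 allows, correspond to 0.0305 to 0.229 CPM by library. *Tlr12* had 0 to 4 counts, with a count in 3 of the libraries. Both encode receptors for profilin of protozoa, and neither could be tested.

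Levels were also set side by side per length, as CPM per kb of exon. *Tlr13* (17.3 over all libraries), *Tlr2* (16.8) and *Tlr7* (10.4) came first, followed by *Tlr4* (6.39), *Tlr8* (6.36), *Tlr3* (3.67), *Tlr1* (2.62), *Tlr6* (2.39), *Tlr5* (2.04) and *Tlr9* (0.964). The ranges of neighbours in this order overlapped in both genotypes, except that *Tlr5* was above *Tlr9* in TauT+/+ libraries without overlap. Division by length moved 4 genes to another rank than in plain CPM. *Tlr2* ranked first in TauT+/+ libraries at 13.6 ± 4.63 CPM per kb (SD, n = 7), and *Tlr13* ranked first in TauT-/- libraries at 22.7 ± 8.41 CPM per kb (SD, n = 8), but these leading genes overlapped in each genotype.

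**Figure D2:**
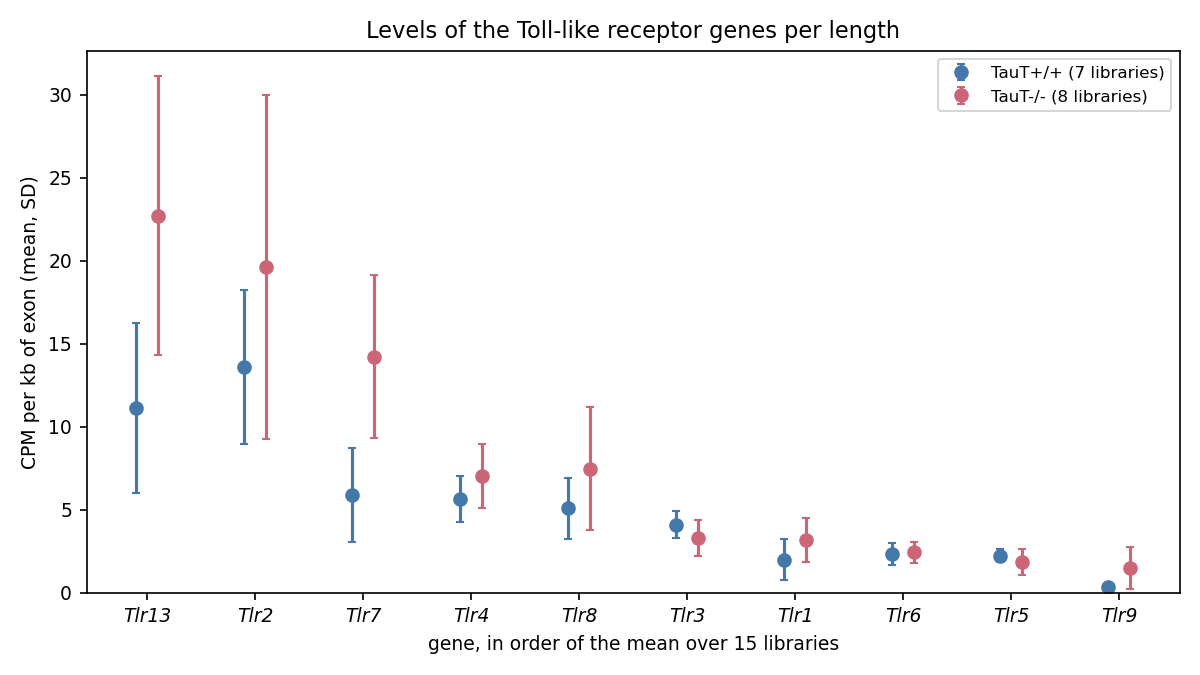
Mean level of each Toll-like receptor gene in CPM per kb of exon, with SD bars, for 7 TauT+/+ libraries (blue) and 8 TauT-/- libraries (red), in order of the mean over all 15. *Tlr13*, *Tlr2* and *Tlr7* led the order, and *Tlr9* was last at 0.354 in TauT+/+ and 1.498 in TauT-/- libraries.

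Over the 10 receptor genes, 8 had a higher fitted level in TauT-/- libraries and their median log2 fold change was 0.51. Of all genes tested, 48.3% were higher and the median was -0.02. These counts describe the list and carry no test.

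The labels of sex were then taken separately. Within male-labelled libraries the log2 fold changes were 1.23 for *Tlr7* (unadjusted p 0.0258), 1.82 for *Tlr9* (unadjusted p 0.0318) and 0.98 for *Tlr13* (unadjusted p 0.044), all by edgeR. Within female-labelled libraries they were 1.24 for *Tlr7* (unadjusted p 0.0384), 2.12 for *Tlr9* (unadjusted p 0.0285) and 0.99 for *Tlr13* (unadjusted p 0.0617). edgeR called 0 members under either label after adjustment, and also 0 of all genes, of which 1483 in male-labelled and 2518 in female-labelled libraries had an unadjusted p under 0.05. The test of the difference between the labels called 0 members and 0 of all genes, with 0 members and 242 genes at an unadjusted p under 0.05. Each label held 1 library of each near-identical pair, so the labels may share material. Without the male-labelled ones, *Tlr7*, *Tlr9* and *Tlr13* had log2 fold changes of 1.769, 2.331 and 1.479 in male-labelled libraries. Without the female-labelled ones, they had 1.635, 2.223 and 1.235 in female-labelled libraries.

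In female-labelled libraries the genotypes did not overlap for 2 members, *Tlr7* and *Tlr13*, with TauT-/- on top, as was so for 6.29% of all genes. For *Tlr13* the separation was narrow, with 75.60 CPM in TauT-/- female 1 and 75.58 CPM in TauT+/+ female 2. No member was separated in this way in male-labelled libraries or in all 15.

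Without the near-identical libraries the direction of *Tlr7*, *Tlr9* and *Tlr13* was the same and the calls were again absent. With the male-labelled library of each pair left out, 13 libraries gave log2 fold changes of 1.49, 2.23 and 1.22 with edgeR adjusted p-values of 0.0835, 0.0901 and 0.0901. With the female-labelled library left out, they were 1.40, 1.99 and 1.09 with edgeR adjusted p-values of 0.115, 0.112 and 0.129. Without the 3 libraries that opposed their sex label, the 12 remaining libraries gave 1.55, 2.47 and 1.25 with edgeR adjusted p-values of 0.155, 0.155 and 0.158.

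Markers of macrophages, blood cells in which most of these receptors are expressed, were also higher in TauT-/- libraries. Their list of 13 genes, among them *Adgre1*, *Csf1r*, *Cd68*, *Lyz2* and the C1q genes, was tested in full, with 13 higher in TauT-/- libraries, 1 of them (*Cd68*) called by edgeR, and a median log2 fold change of 0.89. Of all genes tested, 48.3% were higher and edgeR called 0.546% higher. *Cd68*, which encodes a lysosomal glycoprotein of macrophages, averaged 181 ± 85.4 CPM (SD, n = 7) in TauT+/+ against 524 ± 276 CPM (SD, n = 8) in TauT-/- libraries. It rose by 1.46 on the log2 scale (edgeR adjusted p = 0.0445), a call kept by 3 of 15 fits when single libraries were left out. The summed level of the list was 1366 to 9392 CPM (median 7904) in TauT+/+ and 6388 to 19910 CPM (median 14800) in TauT-/- libraries, and no defining marker was at 0. The lowest sum was that of TauT+/+ male 2, which was also lowest for *Tlr1*, *Tlr2*, *Tlr7*, *Tlr9* and *Tlr13*. The highest sum was that of TauT-/- female 4, which was highest for *Tlr1*, *Tlr6*, *Tlr9* and *Tlr13*. Its markers did not all go together, with *Lyz2* at 10120 CPM and *Adgre1* at 3375 CPM but *Mrc1* at 116 CPM, the lowest of the TauT-/- libraries.

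*Ptprc*, the gene of CD45, which the magnetic depletion selects against, was present in every library at 27.9 to 370 CPM. All 6 general blood cell markers were higher in TauT-/- libraries with an unadjusted p under 0.05 in edgeR, and 0 were called after adjustment. Over all genes 10.6% were higher at that unadjusted threshold. Stromal markers summed to 27930 to 47200 CPM in TauT+/+ and 6196 to 40340 CPM in TauT-/- libraries, the lowest being TauT-/- female 4. These sums rest mainly on *Cxcl12*, *Col1a1* and *Col1a2*, which averaged 12120, 12880 and 7173 CPM in TauT+/+ libraries. Of the 12 stromal genes tested, 3 (*Cd44*, *Itgb1* and *Ly6a*) were higher in TauT-/- libraries, against 48.3% of all genes. edgeR called 0 of the 12, against 0.546% of all genes called higher and 0.75% lower. B cell markers summed to at most 0.261 CPM, plasmacytoid dendritic cell markers to at most 9.28 CPM and neutrophil markers to at most 53.3 CPM, each highest in TauT-/- female 4. In the plasmacytoid list *Cox6a2* reached 8.65 CPM, but *Ccr9* only 0.573 CPM and *Siglech* 0.0521 CPM. In the neutrophil list *S100a8* reached 49.8 CPM and *Camp* 20.6 CPM, but *S100a9*, *Ly6g*, *Ngp* and *Ltf* at most 0.156 CPM. Endothelial markers summed to 1.33 to 8.89 CPM in TauT+/+ and 7.32 to 36.7 CPM in TauT-/- libraries. Most of that was *Kdr*, a VEGF receptor gene, which averaged 2.90 ± 1.94 CPM (SD, n = 7) in TauT+/+ against 16.1 ± 11.4 CPM (SD, n = 8) in TauT-/- libraries. Its log2 fold change was 2.14, with adjusted p-values of 0.0561 in edgeR, 0.000739 in DESeq2 and 0.0155 in voom, and 7 of 8 TauT-/- libraries exceeded the highest TauT+/+ library. *Pecam1*, the gene of CD31, averaged 1.31 CPM in TauT+/+ and 1.16 CPM in TauT-/- libraries. The part of endothelial cells in the receptor values was not tested. In *Klk1* the plasmacytoid list held a marker at 0 throughout. In bulk libraries, more cells of a type and more RNA per cell cannot be told apart.

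With the mean log level of the macrophage list added to the model, the log2 fold changes became 0.31 for *Tlr7*, 0.39 for *Tlr9* and 0.13 for *Tlr13*, with edgeR adjusted p-values of 0.597, 0.834 and 0.796. *Tlr1*, *Tlr2* and *Tlr8* turned to -0.21, -0.36 and -0.14. The median over the 10 receptor genes was -0.01 in that fit, with 5 of them higher. *Tlr3* was -0.41, against -0.31 without the covariate. The part of macrophages in the genotype difference was not tested beyond this fit, since the list was itself higher in TauT-/- libraries.

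**Figure D3:**
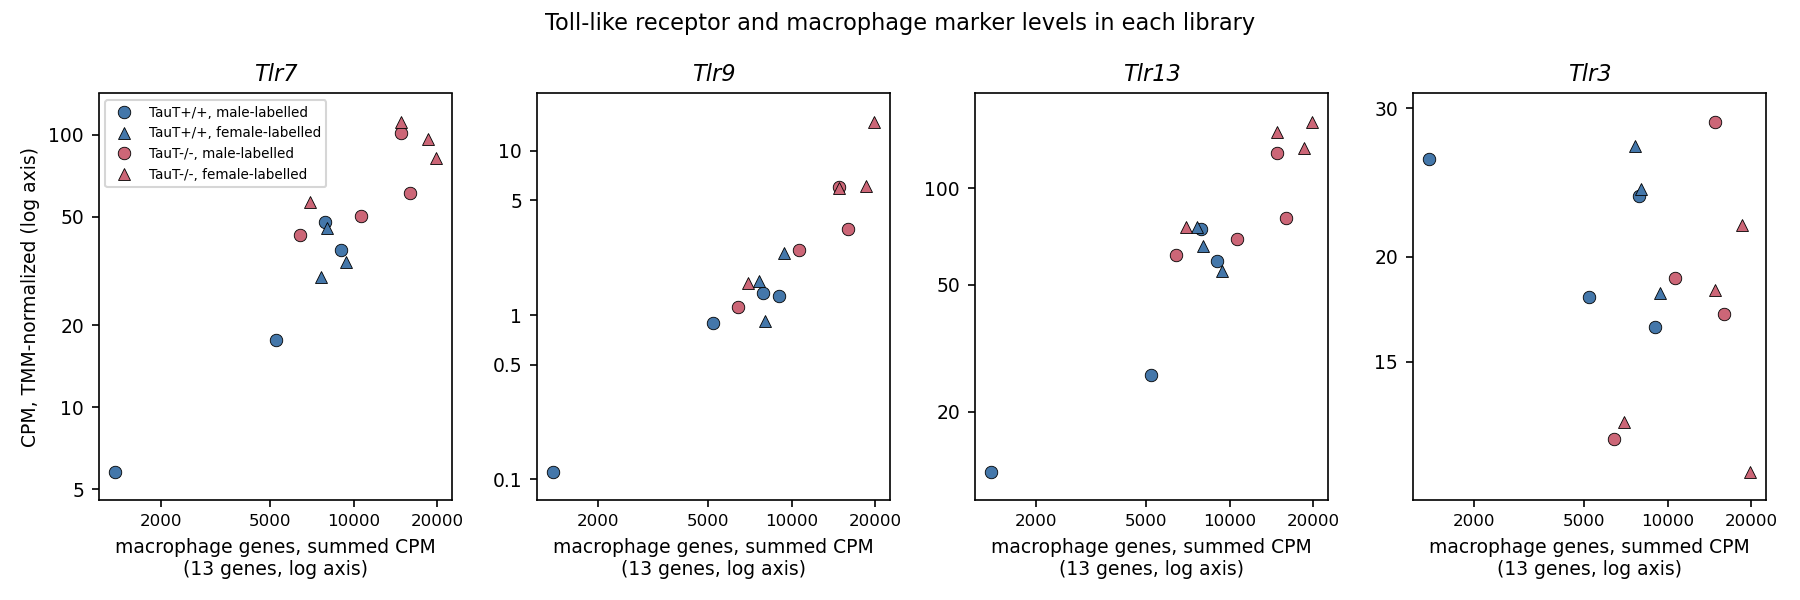
Level of *Tlr7*, *Tlr9*, *Tlr13* and *Tlr3* (CPM, log axis) against the summed CPM of 13 macrophage genes (log axis) in each of the 15 libraries, coloured by genotype and shaped by sex label. *Tlr7*, *Tlr9* and *Tlr13* were lowest in the library with 1366 CPM of macrophage genes and high in those with 14780 to 19910 CPM, whereas *Tlr3* followed no such order.

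**Figure D4:**
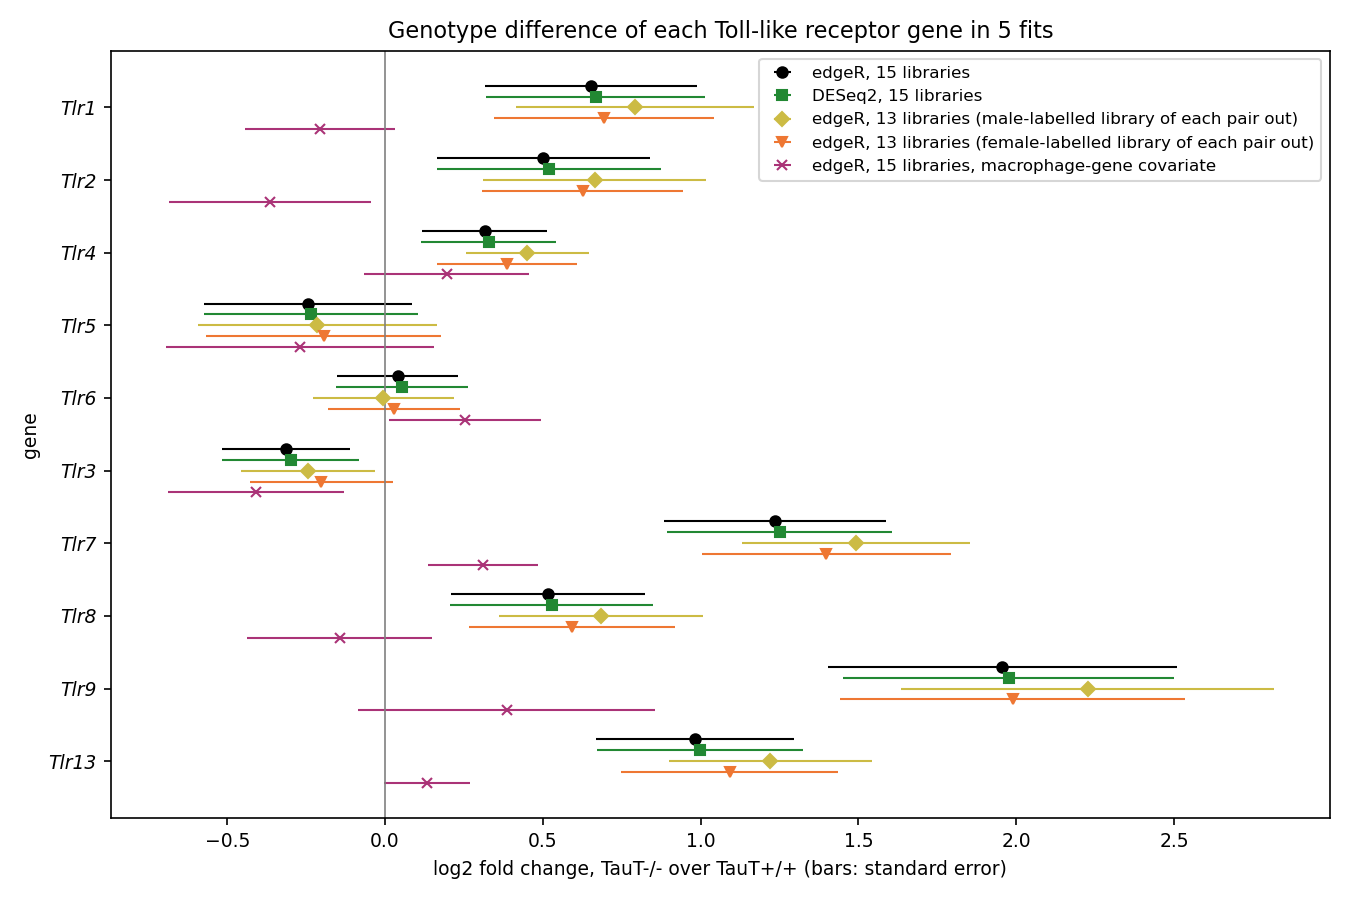
The log2 fold change of each Toll-like receptor gene, TauT-/- over TauT+/+, with its standard error, in edgeR and DESeq2 fits of 15 libraries, 2 edgeR fits of 13 libraries and an edgeR fit with the macrophage covariate. The covariate took *Tlr7* from 1.24 to 0.31 and *Tlr9* from 1.96 to 0.39, while the fits of 13 libraries lay close to the first.

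Across the 15 libraries the receptor genes most alike were *Tlr7* and *Tlr13*, with a Spearman rho of 0.896 and a Pearson r of 0.968, followed by *Tlr9* and *Tlr13* with a rho of 0.864. Over the macrophage genes the median rho was 0.814 for *Tlr7* (0.382 to 0.968), 0.843 for *Tlr9* (0.061 to 0.918) and 0.818 for *Tlr13* (0.343 to 0.921). Between these and the lowest lay *Tlr8* at 0.682 (0.061 to 0.854), *Tlr1* at 0.639 (0.043 to 0.871), *Tlr2* at 0.564 (-0.221 to 0.871) and *Tlr4* at 0.471 (0.168 to 0.704). The median was 0.02 for *Tlr3* (-0.425 to 0.196) and *Tlr5* (-0.239 to 0.564) and 0.121 for *Tlr6* (-0.264 to 0.414). Of all tested genes, those closest to *Tlr7* were *Ddx28* (rho 0.982), *Dock2* (rho 0.979) and *Evi2a* (rho 0.971). Those closest to *Tlr9* were *Cd300c2* (rho 0.986), *2310022A10Rik* (rho 0.982) and *Pik3cg* (rho 0.957), and those closest to *Tlr13* were *Nceh1* (rho 0.964), *Naip6* (rho 0.961) and *Tpd52* (rho 0.957). The nearest genes were *Tmem51* for *Tlr2* (rho 0.95), *5033421B08Rik* for *Tlr1* (rho 0.95), *Nfatc2* for *Tlr8* (rho 0.95), *Ppt1* for *Tlr4* (rho 0.907), *Map3k5* for *Tlr3* (rho 0.879), *Ajm1* and *Srsf4* for *Tlr6* (rho 0.864) and *Gm6556* for *Tlr5* (rho 0.818). These points share libraries, depth and genotype, so the values are descriptions.

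The receptors depend on proteins that carry them to endosomes and cleave or feed them there, and this list held the called genes of the pathway. All 11 of its genes, including *Unc93b1*, the chaperone of the endosomal receptors, had a higher level in TauT-/- libraries, with a median log2 fold change of 0.75, and 3 were called by edgeR. Of all genes tested, 48.3% were higher and edgeR called 0.546% higher. *Lgmn*, which encodes the lysosomal protease legumain, had 174 to 258 CPM in TauT+/+ and 330 to 682 CPM in TauT-/- libraries without overlap. Its averages were 220 ± 30.1 CPM (SD, n = 7) and 459 ± 139 CPM (SD, n = 8), and it rose by 1.00 on the log2 scale (standard error 0.14), with an adjusted p of 0.0112 in edgeR. *Dnase2a*, the lysosomal DNase that trims DNA, had 16.0 to 25.7 CPM in TauT+/+ and 31.4 to 75.9 CPM in TauT-/- libraries, also without overlap, and rose by 1.09 on the log2 scale (standard error 0.15), with an adjusted p of 0.0117 in edgeR. Such a separation, with every TauT-/- library above every TauT+/+ library, was found for 119 of the 17204 genes tested. *Lgmn* and *Dnase2a* kept their calls in all 15 fits when single libraries were left out. Without the male-labelled library of each near-identical pair the edgeR adjusted p was 0.0531 for *Lgmn* and 0.0399 for *Dnase2a*, and it was 0.0309 for both without the female-labelled ones. With the macrophage covariate the log2 fold changes were 0.80 and 0.82, and the edgeR adjusted p was 0.213 for both. *Ctss*, which encodes cathepsin S, had 36.9 to 316 CPM in TauT+/+ and 271 to 2503 CPM in TauT-/- libraries, where the near-identical libraries male 1 and female 1 were lowest. It rose by 2.07 on the log2 scale (standard error 0.47, edgeR adjusted p = 0.0467), but only 2 of 15 fits kept the call when single libraries were left out. Without the male-labelled or the female-labelled library of each near-identical pair the call was absent, with edgeR adjusted p-values of 0.0772 and 0.0973. These 3 genes also have roles in the lysosome outside receptor processing. DESeq2 called 5 genes of this list higher, against 5.82% of the genes it gave an adjusted p.

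Co-receptors present ligands to TLR2 and TLR4 or modify them. Of 7 tested, edgeR called 0, with 2 higher and 1 lower at an unadjusted p under 0.05, and DESeq2 called those 3. Over all genes 10.6% were higher at that unadjusted threshold in edgeR. The share of all genes lower at it was not counted, so the 1 lower cannot be judged against it. DESeq2 called 972 genes higher and 1106 lower of the 16708 it gave an adjusted p. *Cd14*, which hands lipopolysaccharide to TLR4, was at 31.2 to 216 CPM in TauT+/+ and 192 to 475 CPM in TauT-/- libraries, with a log2 fold change of 1.25 and an edgeR adjusted p of 0.0752. *Cd180*, a relative of TLR4 on B cells and macrophages, had a log2 fold change of 0.99 (edgeR adjusted p = 0.097). *Lbp*, the lipopolysaccharide-binding protein gene, was at 19.4 to 251 CPM in TauT+/+ and 2.35 to 56.6 CPM in TauT-/- libraries, with a log2 fold change of -2.03 (edgeR adjusted p = 0.0953). *Tril* had a log2 fold change of -0.19 (edgeR adjusted p = 0.949).

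Downstream of the receptors edgeR called 0 genes. Among 6 adaptors 2 were higher at an unadjusted p under 0.05 in edgeR, and the list median was 0.36. Over all genes 10.6% were higher at that threshold and the median was -0.02. *Ticam2*, the bridging adaptor of TLR4, had a log2 fold change of 1.21 and *Pik3ap1* of 0.91, with edgeR adjusted p-values of 0.216 and 0.183, while *Sarm1* was at -0.18. *Ticam2* stood at 53.7 CPM in TauT-/- female 4, at 2.40 to 7.44 CPM in the other TauT-/- libraries and at 0.979 to 10.1 CPM in TauT+/+ libraries, and its log2 fold change was 0.47 without TauT-/- female 4. Of 16 kinases and ubiquitin ligases 3 were higher at the unadjusted threshold in edgeR and the median was 0.10. *Traf6*, the ligase that joins IRAK kinases to NF-κB activation, had a log2 fold change of 0.50 and *Tab2* of 0.41, and *Irak2* and *Ikbke* were at -0.19 and -0.18. DESeq2 called 1 of these kinases and ligases higher and 0 adaptors, against 5.82% of the genes it gave an adjusted p.

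Of 10 inhibitors 9 were tested, 1 of them was higher and 1 lower at an unadjusted p under 0.05 in edgeR, and DESeq2 called 0. Over all genes 10.6% were higher at that unadjusted threshold. *Tollip* and *Il1rl1* had log2 fold changes of 0.42 each, *Socs1* of -0.76 and *Tnfaip3*, the gene of the deubiquitinase A20, of -0.28. Among 13 transcription factors 3 were higher and 2 lower at the unadjusted threshold in edgeR, and DESeq2 called 1 higher and 2 lower. Of the 16708 genes with an adjusted p in DESeq2, 972 were called higher and 1106 lower. In edgeR the share of all genes lower at the unadjusted threshold was not counted. The lower counts of inhibitors and transcription factors therefore cannot be judged against it. *Irf8*, a factor of macrophages and dendritic cells, had a log2 fold change of 1.04 (edgeR adjusted p = 0.0976), *Atf3* of 1.15 (edgeR adjusted p = 0.377), *Irf7* of -0.81 (edgeR adjusted p = 0.298) and *Fos* of -1.96 (edgeR adjusted p = 0.106). *Atf3* was at 290 CPM in TauT-/- female 4, and its log2 fold change was -0.03 without that library and -0.08 in voom. It was -0.14 with the replicate block, where TauT-/- female 4 had no TauT+/+ partner and so did not inform the genotype difference. *Fos* was under the TauT+/+ median in all 8 TauT-/- libraries.

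Of 21 genes that receptor signalling is known to induce, 18 were tested, 15 were higher in TauT-/- libraries, and 1 had an unadjusted p under 0.05 in edgeR. Of all genes tested, 48.3% were higher, and 10.6% were higher at that unadjusted threshold. The median log2 fold change of the induced genes was 0.30. It became -0.01 in voom, -0.42 with the macrophage covariate and -0.03 without TauT-/- female 4. The gene past the unadjusted threshold, *Nos2*, encodes inducible nitric oxide synthase and was at 238 CPM in TauT-/- male 4, 90.4 CPM in female 3 and 609 CPM in female 4, and at 4.03 to 37.6 CPM in the other TauT-/- libraries and in all TauT+/+ libraries but male 2, which had 0.578 CPM. It stood 3.04 higher on the log2 scale (standard error 1.22), with adjusted p-values of 0.153 in edgeR, 0.0187 in DESeq2 and 0.429 in voom. *Acod1* had a log2 fold change of 1.15 (edgeR adjusted p = 0.421), *Cxcl1* of -0.89 (edgeR adjusted p = 0.222) and *Nfkbiz* of -0.53 (edgeR adjusted p = 0.379). That of *Acod1* was 0.39 without TauT-/- female 4. *Il10*, *Il12b* and *Ifnb1* did not pass the filter on low counts.

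**Figure D5:**
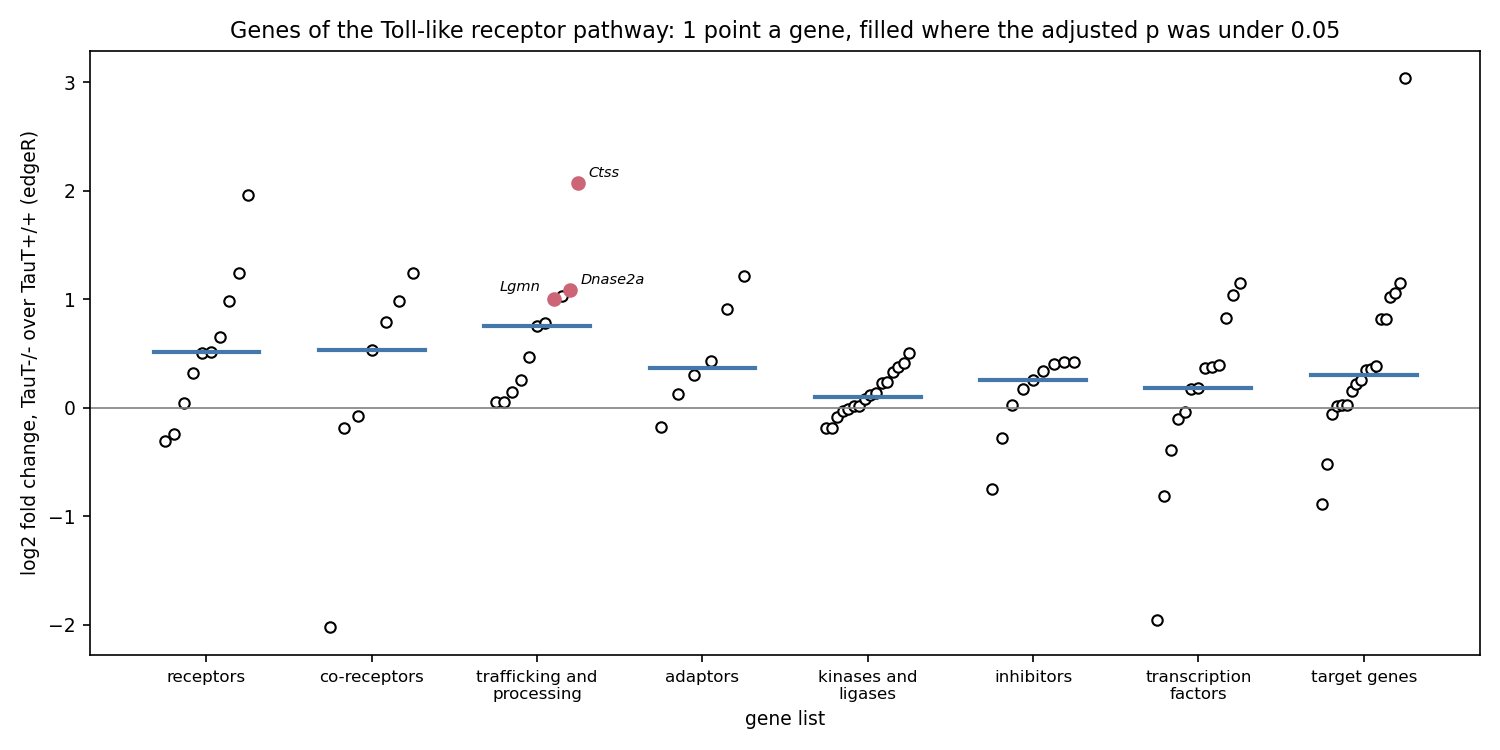
The log2 fold change in edgeR, TauT-/- over TauT+/+, of each tested gene in the receptor list and 7 lists of the pathway, with a blue line at each median and filled points where the adjusted p was under 0.05. The filled points are *Lgmn*, *Dnase2a* and *Ctss*, all in the trafficking list, whose median was 0.75 against 0.51 for the receptors and 0.10 for kinases and ligases.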

How the data were processed

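The deposited values are whole-number counts of reads per gene, not normalized, which the authors obtained from oligo-dT-primed, full-length amplified cDNA with fastp 0.23.1, STAR 2.7.9a (GRCm39, GENCODE M31) and featureCounts of Subread 2.0.1, counted by strand. Every column was matched to a sample by title, and samples were grouped by labelled genotype and sex.

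The tests used edgeR 4.0.16 under R 4.3.3, with filterByExpr, TMM and the quasi-likelihood test on labelled sex plus genotype, with Benjamini-Hochberg adjustment over 17204 genes. The common biological coefficient of variation was 0.482. Effects within a sex label and their difference came from a fit with 1 term per group. DESeq2 1.42.0 and limma 3.58.1 (voom with sample weights) were alternatives, with other filters, normalizations, library subsets, a replicate block and a macrophage covariate. The scripts were tested on simulated data.

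The receptor genes and pathway lists were chosen with earlier results of these data known. From each pathway list the text names every gene edgeR called and the 2 highest and 2 lowest log2 fold changes that lay above and below 0, and for each receptor gene the genes with the highest Spearman rho. *Unc93b1*, the untested genes and the marker genes named were chosen after their values were seen.

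Positions and exon lengths are those of GENCODE M39, which is newer than M31 but on the same build, and promoters from RefSeq on GRCm38.p6. Amino acid sequences were not used here. PCR-amplified reads carry no molecular identifiers, so limits from counts cover counting error only.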

Additional observations from a re-analysis of the deposited data

Results flagged for a closer look

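In groups of 4 libraries, a library was singled out where its gap to the nearest other, divided by the whole range of the group, was above the 95% critical value of Dixon's test. Of 114 groups tested, 12 were singled out. The nominal rate of 1 in 20 would be 5.7, but that rate holds for independent, normal values. The pathway genes were named for their fold changes and share the same libraries, so the counts cannot be compared as a test. None of the 10 receptor genes was among them. In TauT-/- female 4 the pathway genes *Ticam2* (gap 0.912 of the range, 53.7 CPM against 2.72 to 7.20), *Traf6* (0.976, 104 CPM against 27.6 to 29.4), *Ikbke* (0.849, 164 CPM against 60.8 to 76.3), *Atf3* (0.962, 290 CPM against 5.87 to 16.8), *Nos2* (0.86, 609 CPM against 5.92 to 90.4) and *Acod1* (0.895, 409 CPM against 22.8 to 63.3) were high. This is the library with the highest *Tlr9* and *Tlr13*, the lowest *Tlr5*, the largest sum of macrophage markers and the smallest sum of stromal markers. In TauT-/- male 4 *Atf3* (0.882, 40.9 CPM against 6.51 to 10.6) and *Nos2* (0.893, 238 CPM against 4.03 to 29.1) were high. The others were *Tril* high in TauT-/- male 2 (0.964, 16.2 CPM against 0.0713 to 0.65), *Ctss* low in TauT-/- male 1 (0.869, 271 CPM against 639 to 695), *Irak2* high in TauT+/+ male 1 (0.855, 77.5 CPM against 51.1 to 54.9) and *Il1rl1* high in TauT+/+ male 3 (0.921, 17.3 CPM against 0.656 to 1.97).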

How the results depend on the processing

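*Tlr7*, *Tlr9* and *Tlr13* had a higher fitted level in TauT-/- libraries under every alternative run, within each sex label as well, and were called by DESeq2 and voom. The number of receptor genes called was 3 in both of those fits and 0 in the others with all libraries. It was 0 to 1 with 1 library left out at a time, the 1 being *Tlr7* without TauT+/+ male 3. The number higher was 5, with a median of -0.006, under the macrophage covariate, which turned *Tlr1* (-0.206), *Tlr2* (-0.364), *Tlr8* (-0.144), *Acod1* (-0.751), *Il1rl1* (-0.464) and *Pik3ap1* (-0.158), and the list medians of co-receptors (-0.123), inhibitors (-0.102), transcription factors (-0.035) and targets (-0.421). voom turned *Atf3* (-0.083) and the medians of inhibitors (-0.014), transcription factors (-0.013) and targets (-0.01). *Tlr6* was -0.005 without the male-labelled library of each near-identical pair and ran from -0.052 to 0.173 with 1 library left out. *Tril* was 0.197 without the sex term, 0.017 without the female-labelled library of each near-identical pair, and from -2.155 to 0.237 with 1 library left out. Over those fits *Atf3* ran from -0.032 to 1.533 and the medians of transcription factors from -0.032 to 0.293 and of targets from -0.032 to 0.533, each lowest without TauT-/- female 4. Without the 3 libraries whose *Xist* and *Ddx3y* opposed the label, *Ikbke* was 0.124 and *Sarm1* 0.083.

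Over all genes edgeR called 129 lower and 94 higher. The counts were 1106 and 972 in DESeq2, 708 and 611 in voom, 42 and 32 with no filter, 258 and 188 without the sex term, 0 and 0 with the macrophage covariate, 0 and 0 without the 3 libraries, 0 and 7 without the female-labelled and 0 and 2 without the male-labelled library of each pair. At least 10 counts in every library gave 200 lower. With 1 library left out they ran from 4 to 779 lower and from 8 to 476 higher, both most without TauT+/+ male 3. The fewest lower came without TauT+/+ female 1 or female 2, and the fewest higher without TauT+/+ female 2 or TauT-/- female 3. The cause was not tested.

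In the trafficking list 5 genes were called by DESeq2, 0 with the macrophage covariate, 0 without the 3 libraries and 1 without the male-labelled library of each pair. Co-receptors had 2 higher and 1 lower in DESeq2 and 1 higher in voom. Kinases and ligases had 1 in DESeq2, 1 without the sex term and 2 in voom, transcription factors 1 higher and 2 lower in DESeq2 and 1 lower in voom, and targets 1 in DESeq2. With 1 library left out, co-receptors had 0 to 1 higher and 0 to 1 lower, kinases and ligases 0 to 1 higher and transcription factors 0 to 1 lower. The order by level moved 4 genes to another rank in plain CPM and 2 without TMM factors.

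The replicate numbers were used as a block within sex label. The correlation of deviations for the same number ran from -0.0396 to 0.622. Pairing required a correlation over 0.1 for every number, which 5 of 7 had and female 2 (0.0724) and female 3 (-0.0396) had not, so the numbers were not taken to pair the samples. As a hint from the data, 11 of 14 libraries were most like their own number. With the replicate block 177 genes were lower and 82 higher, *Tlr7*, *Tlr9* and *Tlr13* had log2 fold changes of 1.41, 1.70 and 1.04, and *Tlr6* (-0.018), *Atf3* (-0.142) and the median of transcription factors (-0.069) turned. *Ctss* lost its call (edgeR adjusted p = 0.0685). *Tlr9* rested on 10 counts in TauT+/+ male 2.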
